A study of Drosophila melanogaster with 3 samples.

Results

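The X chromosome of Drosophila melanogaster carried 710 of the 3741 regions bound by GFP-tagged Dip3 in the thresholded peak set of this ChIP-seq study. The members are all regions of that set on chrX of build dm6, so they were chosen by position alone, and they are set here against the 3031 regions on the autosomes (arms 2L, 2R, 3L and 3R and chromosome 4). The material was whole embryos 0 to 24 h old, male and female pooled, from 1 transgenic line that stably expresses Dip3 with GFP fused to its C-terminus. Chromatin was sonicated to fragments of 200 to 800 bp and precipitated with an antibody against GFP. There were 3 biological replicates, all of this 1 group, with no untagged, mutant or treated group, and the control sample they point to was not analysed here. The thresholded set was made from the replicate lists and a list called on pooled reads by the irreproducible discovery rate (IDR), which asks how consistently regions rank across replicates. It is called the IDR set below. The labels name no promoter or cell type that drives the fusion, peak lists hold no expression values with which to check the tissue, and sequencing depth was unknown.

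Dip3 belongs to the proteins that combine a MADF and a BESS domain. The MADF domain binds DNA, the BESS domain binds proteins, and Dip3 is known as a partner of Dorsal, the Rel factor of the dorsoventral axis. The X differs from the autosomes in dose, because males have a single copy and females a pair, and in males the MSL complex with its roX RNAs raises transcription from the X. Embryos of both sexes were pooled, so the X was present in fewer copies than the autosomes. How copy number entered the authors' signal values was not tested.

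The summit and 50 bases on each side of it follow for the 7 strongest X peaks, printed 5' to 3' on the plus strand of the Release 6 genome. They are shown because they are the sites with the highest signal. Of the 10 motifs searched, CGATA (the BEAF-32 core, read TATCG on the other strand) is in 1 of them, where capitals mark it, and the other 6 hold none. Over all X summits 495 of 710 (69.7%) hold none.
Ugalt promoter, chrX:2703840-2703940: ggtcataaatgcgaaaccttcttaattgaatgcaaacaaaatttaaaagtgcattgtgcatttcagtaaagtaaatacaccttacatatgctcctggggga
ph-p promoter, chrX:2137278-2137378: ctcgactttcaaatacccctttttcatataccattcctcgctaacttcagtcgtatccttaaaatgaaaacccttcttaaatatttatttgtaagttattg
Vinr exon, chrX:12751380-12751480: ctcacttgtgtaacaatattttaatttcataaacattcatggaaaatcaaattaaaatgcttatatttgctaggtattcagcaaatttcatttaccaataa
CG32772 intron, chrX:4910312-4910412: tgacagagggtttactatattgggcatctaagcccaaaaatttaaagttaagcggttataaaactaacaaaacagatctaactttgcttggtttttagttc
exon of lncRNA:CR44619, chrX:12752321-12752421: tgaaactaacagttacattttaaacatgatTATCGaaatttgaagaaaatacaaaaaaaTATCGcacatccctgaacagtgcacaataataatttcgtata
Atf3 promoter, chrX:1275459-1275559: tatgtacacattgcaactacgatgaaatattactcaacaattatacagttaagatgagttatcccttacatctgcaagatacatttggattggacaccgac
Rubicon promoter, chrX:8676929-8677029: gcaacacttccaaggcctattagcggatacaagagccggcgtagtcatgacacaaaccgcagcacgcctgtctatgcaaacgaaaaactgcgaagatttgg
A smaller set of X promoters held the DNA replication-related element, the site of the factor DREF. The 5 strongest of them follow, with capitals marking that element (TATCGATA) and, where present, further copies of CGATA and the M1BP core GGTCACACT on either strand.
Rnp4F promoter, chrX:5322660-5322760: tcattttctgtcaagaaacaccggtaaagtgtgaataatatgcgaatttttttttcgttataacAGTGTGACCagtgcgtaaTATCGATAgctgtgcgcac
RpS10b promoter, chrX:19597947-19598047: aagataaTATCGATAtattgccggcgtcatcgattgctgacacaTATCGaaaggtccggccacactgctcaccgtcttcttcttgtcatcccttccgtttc
RpL37-1 promoter, chrX:15139394-15139494: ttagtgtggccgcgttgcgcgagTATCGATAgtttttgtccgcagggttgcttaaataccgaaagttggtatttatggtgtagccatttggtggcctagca
RpS15Aa promoter, chrX:13337654-13337754: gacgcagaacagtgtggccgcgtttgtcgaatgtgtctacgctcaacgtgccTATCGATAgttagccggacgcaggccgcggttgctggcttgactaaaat
RpL36 promoter, chrX:629441-629541: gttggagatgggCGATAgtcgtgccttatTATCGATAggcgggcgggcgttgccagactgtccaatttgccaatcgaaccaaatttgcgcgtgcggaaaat
The last pair belongs to the sex-determination switch gene Sxl and to roX1, a non-coding RNA of the MSL complex. Capitals again mark CGATA.
Sxl promoter, chrX:7096625-7096725: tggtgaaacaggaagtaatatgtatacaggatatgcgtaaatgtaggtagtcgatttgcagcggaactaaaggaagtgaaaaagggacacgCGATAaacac
roX1 exon, chrX:3862459-3862559: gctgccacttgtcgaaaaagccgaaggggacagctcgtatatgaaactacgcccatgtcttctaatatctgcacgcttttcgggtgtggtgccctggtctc

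X peaks were less often at promoters and more often in introns than autosomal peaks. A promoter summit lay within 500 bp of an annotated start of a protein-coding gene. On X, 355 of 710 summits (50%, 95% interval 46.3 to 53.7%) were promoter summits, against 59.1% on the autosomes (57.3 to 60.9%) and 57.0 to 60.3% on the 4 large autosomal arms taken singly. Introns held 273 X summits (38.5%, 34.9 to 42.1%), against 27.8% of autosomal summits (26.2 to 29.4%) and 26.6 to 29.7% on the single large arms. Both X shares lay outside the range of those arms. The intervals here and below are exact Clopper-Pearson intervals, which cover counting error only. Intergenic DNA held 56 X summits (7.89%), against 10.1% of autosomal summits. The rest of the X summits were 10 in 3' UTRs, 10 in exons of non-coding genes, 5 in 5' UTRs and 1 in a coding exon. The summits in 3' UTRs made up 1.41% on X, against 0.693% on the autosomes.

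The same difference was present in each replicate. Each replicate's top list was taken as its 3741 regions of highest signal, which matches the size of the IDR set. In replicate 1, promoters held 45.4% of X regions, against 52.5% of autosomal regions. In replicate 2 they held 46.1% on X, against 54.7% on the autosomes, and in replicate 3 53.7% on X, against 64.1% on the autosomes. The promoter share was thus lower on X in all 3 lists, with a mean difference of -8.71 ± 1.68 percentage points (SD, n = 3). The intron share was 42.0% on X against 30.9% on the autosomes in replicate 1, 40.7% against 30.7% in replicate 2 and 35.7% against 24.1% in replicate 3. The mean difference was 10.9 ± 0.827 percentage points (SD, n = 3), higher on X in 3 of 3 lists. The exact two-sided sign permutation test gave p = 0.25 for each, which is the smallest value 3 replicates allow, so no call is possible at 0.05 and these are descriptions.

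**Figure D1:**
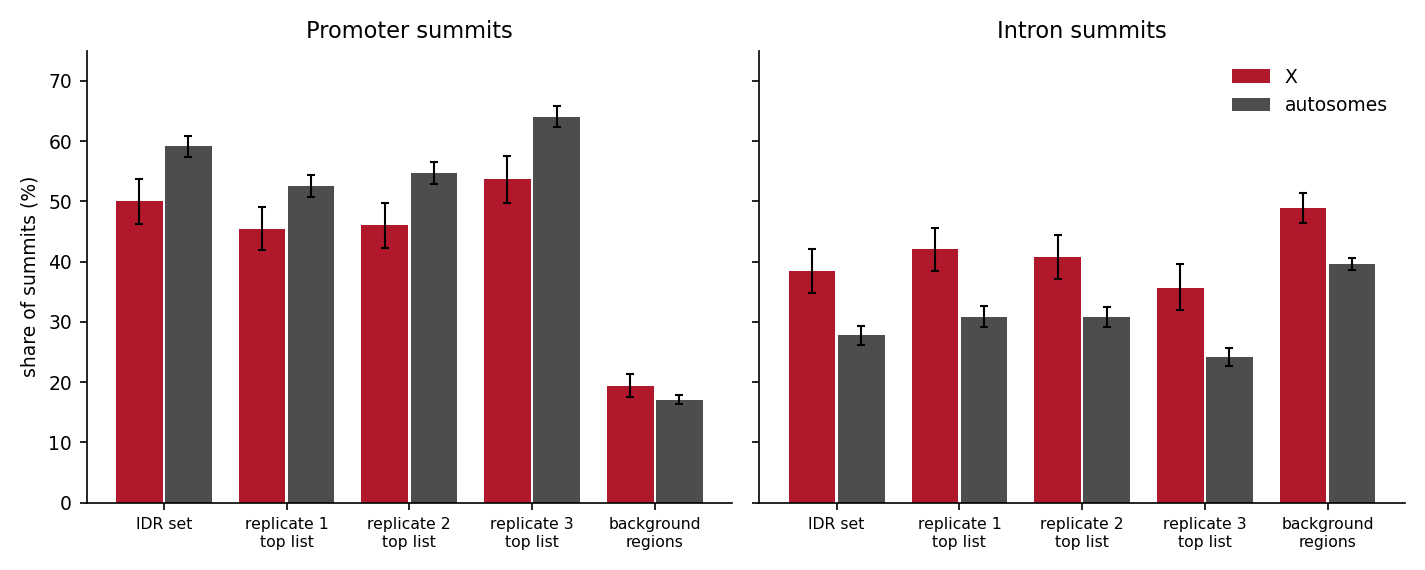
Share of summits at promoters (left) and in introns (right), in percent, for X (red) and autosomes (grey) in the IDR set, in the top list of each replicate and in background regions; bars are shares and lines are exact 95% intervals. In the IDR set and all 3 top lists the X bar is lower for promoters and higher for introns. In background regions the promoter bar of X is 19.5%, against 17.1% on the autosomes. The intron bar of X is higher there too, at 48.9%, against 39.6% on the autosomes.

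Introns make up more of X than of the autosomes. They cover 43.7% of X, against 39.1% of the autosomes, and promoter windows cover 11.0% of X, against 11.5% of the autosomes. Counted per Mb of intron, X held 26.5 peaks, against 19.5 on the autosomes. Per Mb of promoter window it held 137 peaks, against 141 on the autosomes. The density of promoter peaks was thus close on X and autosomes, and the density of intron peaks was higher on X. In the background regions, which are the weaker 50% of the pooled list away from any IDR peak, introns held 48.9% on X, against 39.6% on the autosomes.

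The difference in location was larger in the stronger quartiles than in the weaker ones, without rising at each step. Quartiles of signal, the authors' peak height, were set over the whole IDR set. In the weakest quartile, promoters held 49.4% of 172 X summits, against 50.5% of 764 autosomal summits, and introns held 37.2% on X, against 34.4% on the autosomes. In the strongest quartile, promoters held 51.8% of 193 X summits (44.5 to 59.0%), against 68.3% of 742 autosomal summits (64.8 to 71.7%). Introns there held 38.3% on X (31.5 to 45.6%), against 21.2% on the autosomes (18.3 to 24.3%). The large autosomal arms taken singly ran between 66.5 and 72.3% for promoters and between 17.9 and 24.1% for introns in that quartile. On the autosomes the promoter share was thus higher in each stronger quartile, whereas on X it stood at 49.4, 57.1, 41.2 and 51.8% from weakest to strongest.

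Each replicate's own strongest quartile gave the same picture. Promoters held 49.3, 51.1 and 52.4% of X regions there in replicates 1, 2 and 3, against 66.5, 67.1 and 70.6% of autosomal regions. The difference was -17.2 ± 1.09 percentage points (SD, n = 3), and every X share lay below every autosomal share. Introns held 40.4, 40.0 and 37.6% on X, against 22.4, 21.7 and 20.5% on the autosomes, a difference of 17.8 ± 0.591 percentage points (SD, n = 3). In the weakest quartile of the top lists the promoter difference was 0.307 ± 4.02 percentage points, with X higher in 2 of 3 replicates (exact two-sided sign permutation p = 1). The intron share in that quartile was 45.1, 40.9 and 32.4% on X, against 40.1, 36.6 and 27.6% on the autosomes. That difference of 4.74 ± 0.371 percentage points (SD, n = 3) was smaller than in the strongest quartile but present in 3 of 3 replicates (exact p = 0.25). The p for the strongest quartile was 0.25 in both classes, the smallest this exact test allows with n = 3.

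**Figure D2:**
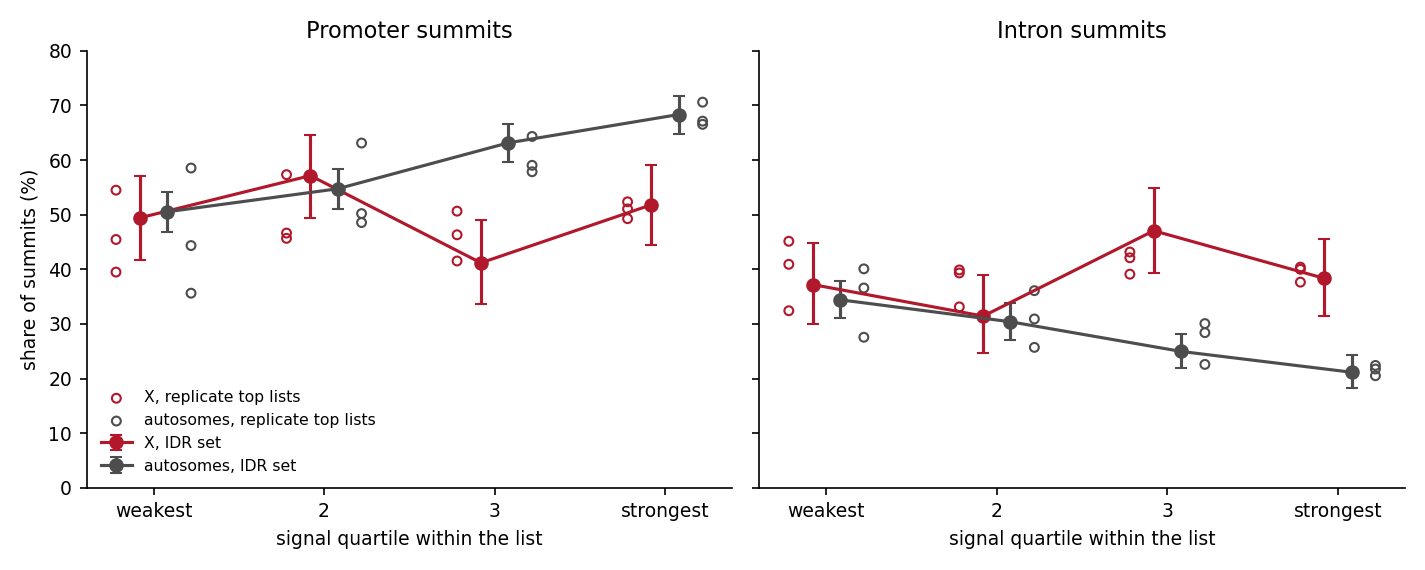
Share of summits at promoters (left) and in introns (right), in percent, by signal quartile, for X (red) and autosomes (grey); filled points are the IDR set with exact 95% intervals and open circles are the 3 replicate top lists. In the weakest quartile the IDR intervals overlap, although the replicate intron shares are higher on X in each list, and in the strongest quartile the groups lie apart, where the X promoter share is 51.8% in the IDR set, against 68.3% on the autosomes.

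X peaks were about as strong as autosomal peaks, but the order of promoter and intron peaks differed. The median signal was 143 on X (range 85.1 to 2494.5), against 140 on the autosomes (85.1 to 2760). For promoter peaks the median was 136 on X, against 152 on the autosomes. For intron peaks it was 154 on X, against 128 on the autosomes. X promoter peaks were therefore weaker at the median than X intron peaks, and autosomal promoter peaks stronger than autosomal intron peaks. In the top lists the median signal was 49.8 on X against 48.2 on the autosomes in replicate 1, 41.3 against 40.3 in replicate 2 and 55.9 against 55.0 in replicate 3. The 3 differences averaged 1.17 ± 0.394 signal units (SD, n = 3, exact two-sided sign permutation p = 0.25), although each list has its own scale. By median rank of matched IDR peaks X stood at 1513, 1732 and 2035.5 in replicates 1, 2 and 3. The autosomes stood at 1705, 1803.5 and 1879.5. X thus ranked better in replicates 1 and 2 and worse in replicate 3. The mean rank difference was -35.8 ± 177 (SD, n = 3, exact two-sided sign permutation p = 0.75). Among the 100 strongest IDR peaks 20 were on X, of which 8 were promoter peaks. The other 80 were autosomal and 62 of those were promoter peaks.

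The 20 strongest X peaks comprised 8 at promoters, 9 in introns, 2 in exons of non-coding genes and 1 in intergenic DNA. Signals of the same peak in the 3 replicate lists are on each list's own scale, so ranks within a list are the safer comparison. The strongest X peak (2703685 to 2704093) had its summit 38 bp upstream of the start of Ugalt, a UDP-galactose transporter. Its signal was 1088, 700.4 and 795 in replicates 1, 2 and 3 and it ranked 2, 2 and 2 of all regions. The second lay 473 bp upstream of a start of ph-p (2137180 to 2137546), a Polycomb group gene, with 698, 623 and 482 and ranks 6, 4 and 10. Both sites were among the 10 strongest regions of every replicate. ph-p had 2 further promoter peaks and 1 intron peak, with IDR signals of 572, 125 and 262. Its neighbour ph-d is a near-identical copy, and how reads that match both were treated is not given in the sources used here.

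Strong X sites away from promoters also ranked high in every replicate. The peak in an exon of the non-coding gene Vinr (12751163 to 12751619) ranked 4, 8 and 8. The peak in an intron of CG32772 (4910183 to 4910552) ranked 12, 15 and 13, with signals of 583, 418 and 466. Introns of Tlk, the Tousled-like kinase gene, and of norpA, the phospholipase C gene of phototransduction, held peaks ranked 52, 45 and 23 and 41, 51 and 81. Further intron peaks among the 20 lay in LPCAT, a lysophospholipid acyltransferase gene, in Raf, the MAP kinase kinase kinase gene, in NFAT, in Zw, the glucose-6-phosphate dehydrogenase gene, in CG3726 and in mnb, a protein kinase gene. Their signals ran between 642 and 827 and their ranks between 50 and 147, with the widest spread at CG3726 (66, 97 and 147).

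A few strong promoter peaks ranked very differently between replicates. The peak 84 bp upstream of Rubicon (8676802 to 8677148), whose mammalian counterpart restrains autophagy, ranked 72, 77 and 5, with signals of 278, 207 and 667 in replicates 1, 2 and 3. The peak 174 bp upstream of the glycolytic gene Gapdh2 ranked 177, 104 and 38. Both ranked best in replicate 3. The promoters of Atf3, a bZIP factor gene, MFS10, a transporter gene, dnc, the cAMP phosphodiesterase gene, and CG3009 ranked between 15 and 106 in every replicate. The intergenic peak 510 bp upstream of CG17896 ranked 35, 25 and 50.

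Counted by an overlap of 1 bp, the share of peaks in all 3 top lists was close on X and autosomes for promoter peaks. For other peaks it was higher on X. This split by location was made after seeing the data. On X 436 of 710 peaks (61.4%, 57.7 to 65.0%) overlapped the top lists of all 3 replicates by 1 bp or more, against 58.0% on the autosomes and 58.7% over the whole IDR set. Of promoter peaks 60.3% were in all 3 top lists on X (55.0 to 65.4%), against 61.0% on the autosomes (58.7 to 63.3%). Of the other peaks it was 62.5% on X (57.3 to 67.6%), against 53.7% on the autosomes (50.8 to 56.5%), and of intron peaks alone 62.6% on X, against 53.6% on the autosomes. A further 192 X peaks were in 2 top lists, 74 in 1 and 8 in none. The share depended on the signal: 10.5, 42.3, 88.8 and 100% of X peaks from the weakest to the strongest quartile were in all 3 top lists, against 9.82, 43.6, 84.1 and 95.7% of autosomal peaks. All 193 X peaks of the strongest quartile were in all 3 top lists, against 710 of 742 autosomal peaks. Without replicate 1 the difference in the share found in all remaining top lists turned to -0.577 percentage points. With a reciprocal overlap of 50% in place of 1 bp, the difference in all 3 top lists was 0.145 percentage points, against 3.37. The split by location was not recomputed with that overlap. At 1 bp, neighbouring IDR peaks that overlap the same replicate region share its rank. Peaks away from promoters were also stronger on X, with a median signal of 149, against 127 on the autosomes.

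Over all classes the difference in support between X and autosomes changed sign between replicates. The top list of replicate 1 held 87.6% of the X peaks, against 80.1% of the autosomal peaks. That of replicate 2 held 85.9% on X, against 85.0% on the autosomes, and that of replicate 3 held 75.2% on X, against 78.2% on the autosomes. The mean difference was 1.83 ± 5.31 percentage points (SD, n = 3, exact two-sided sign permutation p = 0.75), so it was smaller than the spread between replicates. With a reciprocal overlap of 50% the differences were 3.62, -3.27 and -5.94 percentage points in replicates 1, 2 and 3. For peaks away from promoters the top lists held 91.3, 88.5 and 72.4% on X in replicates 1, 2 and 3, against 82.6, 86.5 and 70.9% on the autosomes. That difference of 4.05 ± 4.03 percentage points (SD, n = 3) was positive in 3 of 3 replicates and about the size of its spread (exact two-sided sign permutation p = 0.25). Of X peaks matched in both lists, 66.1% ranked better in replicate 1 than in replicate 3, against 57.0 to 59.7% on the large autosomal arms taken singly. Peaks absent even from a replicate's whole list were 4.08% on X against 8.68% on the autosomes in replicate 1, 0.282% against 1.09% in replicate 2 and 0.282% against 0.759% in replicate 3. Spearman correlations of ranks over matched X peaks were 0.83 for replicates 1 and 2 (679 peaks), 0.72 for 1 and 3 (679 peaks) and 0.68 for 2 and 3 (706 peaks). On the autosomes they were 0.80, 0.64 and 0.64. These peaks were selected on the pooled reads, and the correlations are given as a description.

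**Figure D3:**
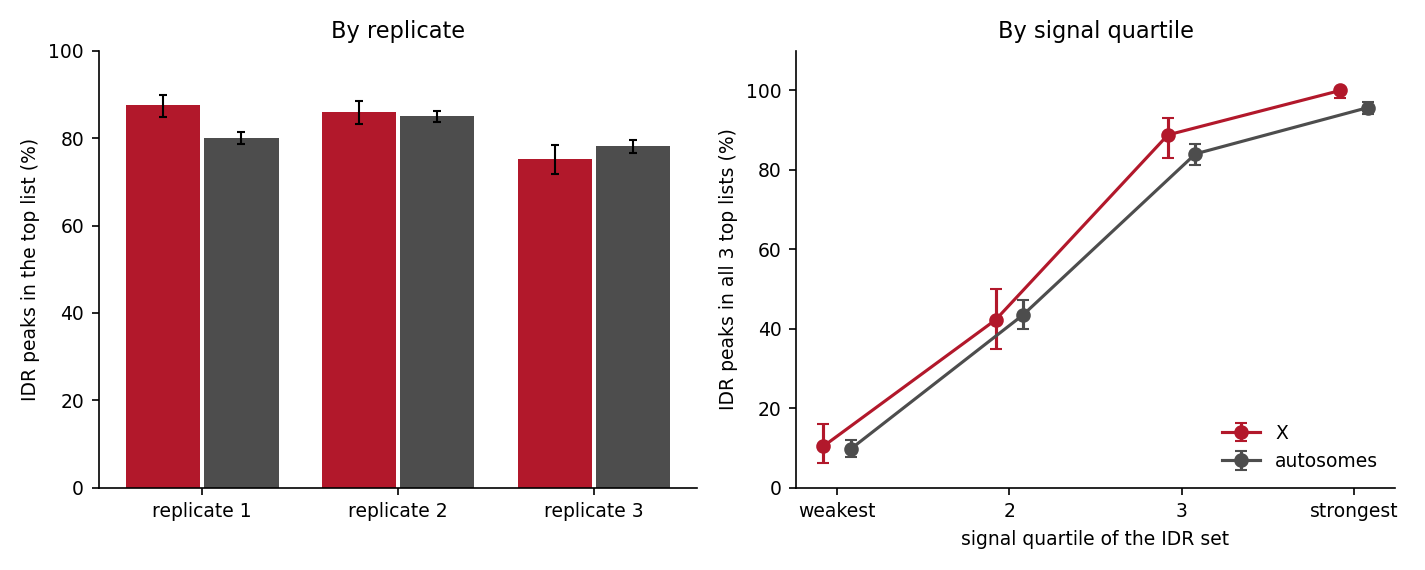
Left, percent of IDR peaks that overlap the top list of each replicate, for X (red) and autosomes (grey); right, percent found in all 3 top lists by signal quartile. Lines are exact 95% intervals; the X bar is above the autosomal one in replicate 1 (87.6%, against 80.1%) and below it in replicate 3 (75.2%, against 78.2%).

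**Figure D4:**
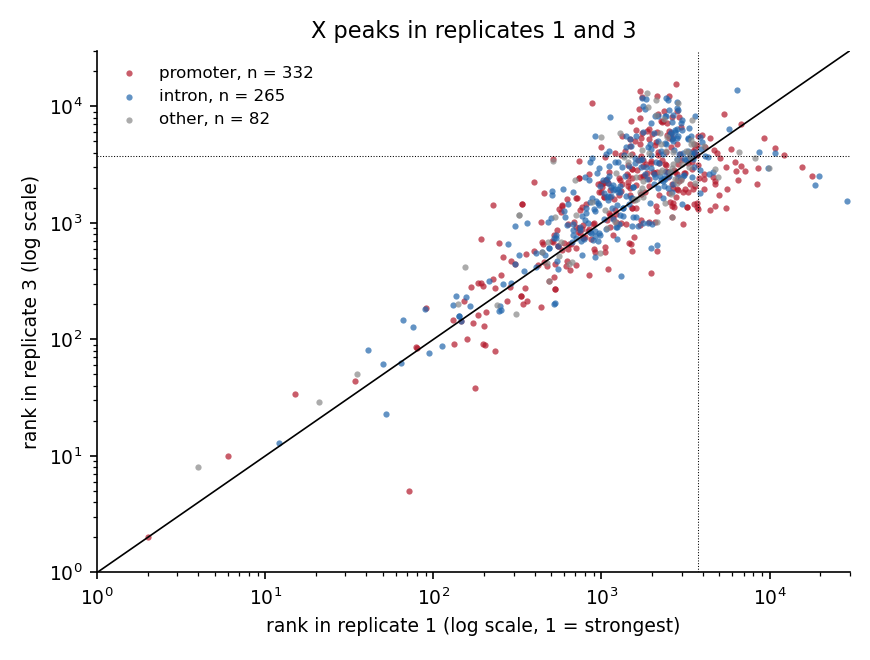
Rank of each X peak in replicate 1 (x axis) and replicate 3 (y axis) on log scales, coloured by location, with the line of equal rank and dotted lines at the end of the top lists; peaks without a match in either list are left out. More points lie above the line, 449 of 679 ranking better in replicate 1, and the isolated point below it at rank 72 and rank 5 is the Rubicon promoter.

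The 8 X peaks in no top list were all in the weakest quartile. The 5 strongest of them had IDR signals between 86.5 and 94.3. They lay at the promoters of ArgRS, an arginyl-tRNA synthetase gene, and Top1, the topoisomerase I gene, and in introns of CG15465, Ctr1A, a copper transporter gene, and Gclc, a glutamate-cysteine ligase gene. At ArgRS no region of replicate 1 overlapped the peak, and its ranks in replicates 2 and 3 were 3830 and 4467, just past the 3741 regions of a top list.

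The X was not clearly denser in peaks than the autosomes. It held 19.0% of the IDR peaks (17.7 to 20.3%), with 17.6% of the length of the arms and 16.9% of the protein-coding starts. That is 30.2 peaks per Mb on X, against 27.5 per Mb on the autosomes and 25.6 to 29.8 on the single large arms. Per 100 protein-coding starts X held 21.5 peaks, against 18.6 on the autosomes. In the top lists X held 32.5, 30.2 and 26.7 regions per Mb in replicates 1, 2 and 3, against 27.0, 27.5 and 28.2 on the autosomes. The groups overlap, and in replicate 3 X was the lower. The mean difference was 2.24 ± 3.58 per Mb (SD, n = 3, exact two-sided sign permutation p = 0.5). In the whole relaxed lists of 30000 regions each, which include background by design, the X share was 14.3, 14.8 and 17.5%. Replicate 3 thus had the lowest X share in the top list and the highest in the whole list. What lay behind this was not tested.

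Along the X, peaks followed gene starts loosely and were missing from a stretch towards the centromeric end. The 23 full 1 Mb bins held between 0 and 57 IDR peaks, with a median of 31. The densest was the bin from 6 to 7 Mb with 57 peaks, followed by that from 2 to 3 Mb with 51. The bin from 22 to 23 Mb held 0 peaks in the IDR set, and 2, 1 and 0 in the top lists of replicates 1, 2 and 3. Over the 23 bins the Spearman correlation of peaks with protein-coding starts was 0.60, a description over bins of 1 arm. Replicate 1 had more X regions than replicate 3 in 21 of the 23 bins, so the difference between these replicates was spread along the arm.

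**Figure D5:**
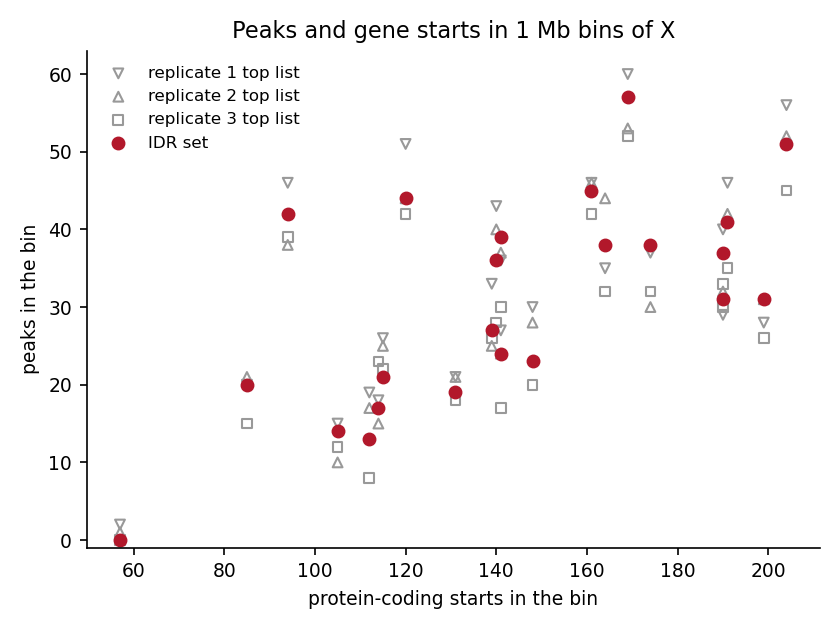
Peaks (y axis) against protein-coding starts (x axis) in the 23 full 1 Mb bins of X; red points are the IDR set and grey symbols the top lists of replicates 1, 2 and 3. Bins with more starts tend to hold more peaks, and the bin with the fewest starts holds 0 IDR peaks.

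The widest gap ran for 1373352 bp between summits at 21631727, upstream of DIP1, and 23005079, upstream of stnB, and held 59 protein-coding starts. A wide gap was not particular to X: the widest was 3988477 bp on 3L, 852167 bp on 2R, 417414 bp on 3R and 406617 bp on 2L. The first X summit was at 245908, by the start of CG3038, and the last at 23010796, in a 5' UTR of FucTC. Neighbouring X summits were a median of 10308 bp apart, against 12249 bp on the autosomes. On X 78 gaps (11.0%) were within 1 kb, against 8.26% on the autosomes and 7.79 to 9.16% on the single large arms. The densest 100 kb of X, with summits from 6771163 to 6867789, held 17 peaks, 9 at promoters and 7 in introns, with signals of 87.9 to 417. Their nearest starts were those of Coq7, a coenzyme Q biosynthesis gene, C3G, a Rap guanine exchange factor gene, pod1, an actin regulator gene, Tmf, CG14435, CG4558, CG14434 and CG43736. Some neighbouring IDR peaks there overlapped the same replicate region, so they are not independent sites.

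X promoter summits lay somewhat farther from the start than autosomal ones, mostly upstream in both. Of X promoter summits 82.8% lay upstream of the start, against 85.3% on the autosomes, with a median signed distance of -105 bp on X, against -86 bp on the autosomes. The median absolute distance was 122 bp on X, against 98 bp on the autosomes, and 72.4% of X promoter summits lay 1 to 300 bp upstream (67.4 to 77.0%), against 77.2% on the autosomes (75.2 to 79.2%). Summits over 1 kb from any protein-coding start made up 39.9% on X (36.2 to 43.6%), against 31.4% on the autosomes (29.7 to 33.1%). Within introns, however, the distance was alike: the median was 2340 bp on X, against 2161.5 bp on the autosomes, and 46.2% of X intron summits were within 2 kb of a start, against 48.0% on the autosomes.

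The 273 intron summits fell in 165 protein-coding host genes apart from 9 that lay in introns of non-coding genes alone. A summit inside overlapping genes was counted for each of them, so some hosts share peaks. Of the hosts 111 had 1 peak and 22 had 3 or more. Tlk, CHES-1-like, a forkhead gene, and Hr4, a nuclear receptor gene of the ecdysone response, had 8 intron peaks each. Raf and CG1677 had 7, and NFAT and CG12535 had 6. In Tlk the 8 IDR signals ranged from 85.8 to 968, in CHES-1-like from 176 to 539 and in Hr4 from 117 to 478. All 8 intron peaks of CHES-1-like were in the top lists of all 3 replicates. Gene length differed widely among hosts, with 29.6 intron peaks per 100 kb in CHES-1-like, 11.5 in Tlk and 1.27 in kirre, a myoblast fusion gene of 394 kb with 5 intron peaks. Of those in kirre 2 are also counted for CG32795, a gene inside it.

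At the level of genes, the share of bound X-linked genes was close to that of autosomal genes. On X 419 of 2196 protein-coding genes (19.1%, 17.5 to 20.8%) had an IDR summit within 500 bp of a start, against 20.6% of 11749 autosomal genes (19.8 to 21.3%) and 20.3% of all genes. The gene groups on X differed widely around that share, and they are described by their counts.

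Cytoplasmic ribosomal protein genes and chromatin genes had the highest shares of bound starts among the 9 groups counted on X. The groups and their members were chosen with earlier results of these data known, so this order is a description. Of 14 X-linked cytoplasmic ribosomal protein genes 13 had a bound start (92.9%, 66.1 to 99.8%), against 54 of 73 autosomal ones (74.0%). The X interval includes the autosomal share. The highest signals were 311 at RpL22, 305 at RpS5a, 291 at RpS28b and 225 at RpS10b. The exception was RpS14a, whose near-identical tandem neighbour RpS14b had a peak of signal 158, so reads could be shared between them. Mitochondrial ribosomal protein genes on X had 2 bound starts of 11 (18.2%, 2.28 to 51.8%), against 34 of 62 autosomal ones (54.8%). They were mRpL16 (114) and mRpS25 (96.5). The start signal of mRpL16 is the same as that of trr in the chromatin list, so 1 peak was counted in both lists. Chromatin and transcription cofactor genes had 8 bound starts of 15 (53.3%, 26.6 to 78.7%), and no autosomal genes were counted for this list. The highest signals were at ph-p (1749), Hmt4-20, a histone H4 methyltransferase gene (385), Top1 (220) and nej, the CBP acetyltransferase gene (150.2).

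Of the developmental regulators listed on X, 1 of 24 was bound at the start (4.17%, 0.105 to 21.1%). That interval includes the 19.1% of all X-linked genes, and no autosomal genes were counted for this list. Of 24 X-linked developmental transcription factor genes, elav, a neuronal RNA-binding protein gene kept in this list, was the sole one with a bound start (signal 481). In 8 of the 24 a peak lay inside the gene or within 500 bp of it, with 20 peaks in all. The same held for 570 of 2196 X-linked protein-coding genes (26.0%), against 25.9% of autosomal genes and 25.9% of all genes. Among the other lists on X it held for 8 of 16 signalling genes and 10 of 15 chromatin genes. Of the 20 peaks in the developmental list, Hr4 held 9, ct, a homeodomain gene, 3 (up to 183) and Myc 2 (up to 211). br, an ecdysone response gene, held 1 of signal 331. Signalling genes had 6 bound starts of 16, with 546 at sgg, the GSK3 kinase gene of Wnt signalling, 299 at par-6 and 277 at dlg1, both cell polarity genes, and 227 at mys, an integrin gene. N, the Notch receptor gene, had a start peak of 162. Raf had peaks in its introns and 5' UTR but none within 500 bp of a start.

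Genes that count or compensate the X were a small group. Of 11 genes for sex determination, dosage compensation and germline sex on X, 3 had a bound start, namely Sxl, snf and roX1. Sxl had a promoter peak of IDR signal 199.6, with 70.6, 62.8 and 69.2 in replicates 1, 2 and 3, and an intron peak of 142. snf, a splicing factor gene acting with Sxl, had 173. roX1 had a weak peak in its exon (97.3), which ranked 3018, 3887 and 3219 and so missed the top list of replicate 2. roX2 had no bound start and 1 peak of 134 in or near the gene. Neuronal and muscle genes had 4 bound starts of 18, with 674 at dnc, 134 at Act5C, an actin gene, 125 at flw, a phosphatase gene, and 125 at if, an integrin gene. The nearest start to the flw peak is that of Psf3, 36 bp from the summit. None of 8 chorion and yolk protein genes and none of 31 chemoreceptor and odorant-binding protein genes on X had a bound start, against 3 of 199 autosomal genes of that last group.

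The sequence under X summits resembled that under autosomal ones. The summit windows, of 50 bases on each side of a summit, had a G+C share of 36.6 ± 9.00% on X (SD over 710 windows), against 36.3 ± 9.29% on the autosomes. Windows of the same length 500 bp away had 43.3% on X, against 44.5% on the autosomes. The DNA replication-related element TATCGATA was in 22 X summit windows (3.10%, 1.95 to 4.65%), against 2.84% of autosomal ones. In the flanking windows of X it was in 0.423%, and in 11772 windows spread along X in 0.408%. Of the 22, 19 were at promoters and 5 had a cytoplasmic ribosomal protein gene as the nearest start. Among the 5 printed above 4 were ribosomal. X promoter peaks with the element had a median signal of 105, against 139 for the 336 X promoter peaks without it, and none exceeded 275. At RpL36, for example, the element's peak was absent from replicate 1 and ranked 2779 and 796 in replicates 2 and 3.

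The other motifs were also counted on both strands. CGATA, the core of the insulator factor BEAF-32 and part of TATCGATA, was in 21.8% of X summit windows and 13.7% of X flanks, against 20.1 and 12.0% on the autosomes. The words CATCNCTA or CACCNCTA were searched for Ohler motif 7, a core promoter element. They were in 3.24% of X summits and 1.41% of X flanks, against 3.27 and 1.15% on the autosomes. Only these words were counted, so the shares do not stand for every form of the element. The M1BP core GGTCACACT was in 0.563% of X summits, against 1.02% on the autosomes. The site of the zygotic activator Zelda, CAGGTAG, was in 9 X windows (1.27%, 0.581 to 2.39%), against 0.462% on the autosomes (0.253 to 0.774%). The summit intervals of that motif overlap. Its flank shares were 0.423% on X and 0.660% on the autosomes. CTCF cores (AGNTGGC or AGNGGGC, with A or G at N) were in 4.65% of X summits and 4.51% of X flanks, against 4.85 and 4.12% on the autosomes.

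Simple repeats were scarce under X summits and frequent beside them. CACACACA was in 0.986% of X summit windows (0.397 to 2.02%) and 6.62% of X flanks, against 0.990 and 3.63% on the autosomes. Along X as a whole it was in 2.98% of windows. GAGAGAGA, a repeat bound by GAGA factor and CLAMP and present in the entry sites of the MSL complex, was in 0.423% of X summits and 1.69% of X flanks, against 0.462 and 1.29% on the autosomes. The E-box CACGTG was in 1.13% of X summits, against 0.924% on the autosomes. The Dorsal core GGGAAANCC was in 0 of 710 X windows, which allows a share of up to 0.518% by the exact interval, against 0.198% on the autosomes. It was in 0.704% of X flanks, 0.229% of windows along X and 0.297% of autosomal flanks, so it was no commoner at summits than beside them.

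Words of 8 bases found in at least 2% of autosomal summits were ordered by their ratio to autosomal flanks, then counted on X. That choice raises their autosomal shares, so a lower share on X is no result. The comparison free of it is X summits against X flanks. The word with the largest ratio of autosomal summits to flanks, CAACACTG, was in 1.41% of X summits (0.677 to 2.57%) and 0.423% of X flanks, against 3.17% of autosomal summits. AACTATCG was in 2.39% of X summits and 0.563% of X flanks, against 2.24% of autosomal summits. TTTTAAAA was in 1.97% of X summits (1.08 to 3.29%) and 0.845% of X flanks, against 3.50% of autosomal summits. The ATCGATAG word, which overlaps TATCGATA, was in 3.38% of X summits and 0.563% of X flanks, against 3.04% of autosomal summits.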

How the data were processed

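Peak lists of 3 biological replicates of 1 group were used, on build dm6. Per the file headers, the authors called regions for each replicate and on pooled reads and made the thresholded set by IDR; the sources used here do not name the aligner, the peak caller or their versions. Each deposited region carries a signal value on its own list's scale and a −log10 q value, which was used at a q of 0.01. The IDR set equals the 3741 strongest regions of the pooled list. Peak lists hold no read counts, so depth was unknown. Summits were classified with Ensembl release 115 (BDGP6 patch 54), within 500 bp of a protein-coding start first, then in UTRs (5' before 3'), coding exons, exons of non-coding genes and introns, and otherwise as intergenic. Sequence was Release 6 of the genome, with positions counted from 1. X and autosomes were compared within each replicate by an exact two-sided sign permutation test over the 3 replicates. The labels do not say whether replicates were separate collections, so their spread may be technical. The results were recomputed with promoter windows of 200 and 1000 bp, other list lengths and overlaps, signal strata, dm3 lists, other windows and flanks, and each replicate left out. Named peaks are the 20 strongest on X, up to 4 bound members of a gene list, the first and last peak, those at the widest gap and in the densest 100 kb, and up to 5 in no top list; other host genes, promoters with TATCGATA and list members without a bound start were chosen after their values were seen. Gene lists and members were chosen with earlier results of these data known. The computations were tested on simulated data. Python 3.11.15, numpy 2.4.6, pandas 2.3.3, scipy 1.17.1 and matplotlib 3.10.9 were used. Signal tracks were not analysed here.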

Additional observations from a re-analysis of the deposited data

How the results depend on the processing

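Of 72 alternative values, 46 stayed within the spread and direction of the reported one, 22 moved further and 4 changed sign. The X minus autosomes difference in promoter share (-9.12 percentage points) was -10.9 with 200 bp windows, -18.9 in the upper 50% by signal, and -12.1 to -11.3 with a replicate left out. That in intron share (10.7) was 11.6 with 200 bp, 9.62 with 1000 bp, 19.3 in the upper 50%, and 12.2 to 12.8 with a replicate left out. A set without a replicate kept the peaks in both other top lists, so it was smaller and stronger (2382 to 2733 peaks). The log2 ratio of median signal, X over autosomes (0.03), was -0.16 in promoter peaks, 0.22 in other peaks, and 0.033 to 0.094 with a replicate left out. The difference in the share found in all top lists (3.37 percentage points) was 0.145 with a reciprocal overlap of 50%. It was -1.27 in the second signal quartile, -0.767 in promoter peaks, 8.86 in other peaks and 9.07 in intron peaks. With a replicate left out it ran from -0.577 to 5.62, the lowest without replicate 1. The mean X share of replicate lists (18.7%) was 15.6% in whole relaxed lists, an alternative added after seeing the data, as were the split by signal quartile and arm and that of support by location. In windows of 100 bases on each side the summit minus flank difference on X was 5.77 percentage points for TATCGATA (2.68 with 50 bases). It was 4.51 for the words searched for Ohler motif 7 (1.83) and -8.17 for CACACACA (-5.63). For CACACACA it was -2.39 with flanks at 1000 bp. The densest bin held 68 peaks per Mb in 500 kb bins (57 in 1 Mb bins). Where not stated above, the cause was not tested. X and autosomes are paired within replicates throughout, and with 1 group no pairing between groups exists. Depth was unknown, and 3 replicates cannot give an exact p below 0.25.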
